A study of Mus musculus with 28 samples.

Results

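The tumors compared here were those of mice given 5-fluorouracil (5-FU) together with immune checkpoint blockade (ICB) and those of mice given cisplatin together with the same ICB. They were chosen by their labelled treatment alone, and were 10 of the 28 tumors of the series, 5 in each group. The series sequenced RNA of whole AB1-HA tumors, a mouse mesothelioma line carrying influenza hemagglutinin and grown under the skin of the flank of female BALB/c mice aged 8 to 10 weeks. The other groups received PBS (n = 4), ICB (n = 5), 5-FU (n = 5) or cisplatin (n = 4). Treatment began when tumors measured 20 to 25 mm2, and tumors were taken on day 7. In the 5-FU+ICB group, 5-FU was given intravenously at 75 mg/kg, and in the cisplatin+ICB group, cisplatin was given into the peritoneum at 6 mg/kg. Both groups received ICB as 1 dose of 100 µg of anti-CTLA-4 antibody and 3 doses of 100 µg of anti-PD-L1 antibody. All tumors come from 1 cell line, and drug, dose and route changed together between the groups, so their parts cannot be told apart. The question was which genes differed between tumors given ICB with one chemotherapy and tumors given ICB with the other, and whether that difference was also seen between the drugs without ICB.

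As background, 5-FU is a pyrimidine analog that blocks thymidylate synthase and enters RNA and DNA, while cisplatin forms platinum adducts on DNA. Both can activate p53, the transcription factor that induces cell cycle arrest and cell death genes. Antibodies to CTLA-4 and PD-L1 release T cells from inhibitory signals. Tumors also hold vessels, fibroblasts and myeloid cells, among them neutrophils and monocytes. When oxygen is short, the factor HIF-1 switches on genes for glycolysis, acid handling and mitochondrial turnover, and in the integrated stress response the factor ATF4 switches on genes for amino acid supply and cell death.

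Each tumor library held 25601049 to 32778145 estimated counts among these 10 tumors, and the totals of the groups overlapped. Gene levels are given as CPM, the estimated counts relative to the library size after TMM scaling, always in the order of replicates 1 to 5. Several libraries stood apart from their groups. Cisplatin+ICB replicate 1 had 1.03% of its counts on mitochondrial genes (3.23% to 4.00% in the other cisplatin+ICB tumors), and its mean correlation of log2 CPM with the rest of its group was 0.844 (0.937 to 0.947 in the others). In 5-FU+ICB replicate 5 the mitochondrial share was 16.1% (2.34% to 4.95% in the others) and this correlation was 0.902. For 5-FU+ICB replicate 2 the correlation was 0.910, and its level of Ptprc, the leukocyte antigen CD45, was the lowest of its group at 105 CPM. Mesothelin (Msln), the marker of mesothelial cells and mesothelioma, was at 34.5, 167, 67.9, 53.4 and 0.5 CPM in the 5-FU+ICB tumors and 655, 147, 266, 131 and 137 CPM in the cisplatin+ICB tumors. It was thus nearly absent from 5-FU+ICB replicate 5, the tumor that also held most of the B cell transcript Cd79a (288 CPM, against 6.45 to 10.9 in the other 5-FU+ICB tumors). Between the groups Msln did not pass (log2 fold change -2.05, adjusted p = 0.0939), and 5 of the 10 mesothelial markers were high enough to be tested. The other 4 of these leaned the opposite way and did not pass either (log2 fold changes of 4.68 for Krt19, 3.88 for Gpm6a, 1.44 for Krt8 and 0.89 for Wt1). Those of Krt19 and Gpm6a rested on 5-FU+ICB replicate 5, with Krt19 at 48.9 CPM there (at most 1.86 in the other 5-FU+ICB tumors) and Gpm6a at 7.61 CPM (at most 0.708). Without that tumor Krt19 was at 0.88, Gpm6a at 1.56 and the median of the 5 tested markers at 0.88 instead of 1.44. The part of tumor cell content in the results was not tested. Most edgeR calls between the combinations were lost without cisplatin+ICB replicate 1 or without 5-FU+ICB replicate 5, as given below. In tissue RNA of this kind, fewer cells of a type and less RNA per cell cannot be told apart.

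With edgeR's quasi-likelihood test over 18499 genes, 55 genes (0.297% of those tested) were differentially expressed between the combinations, with a Benjamini-Hochberg adjusted p below 0.05 and a log2 fold change beyond 0.5. Of these, 19 (0.103%) were higher and 36 (0.195%) were lower in 5-FU+ICB tumors. Among the lower genes were myeloid genes (Chil3, S100a9, Cd177, Trem1), HIF-1 targets (Bnip3, Pdk1, Car9, Ankrd37, Kdm3a) and stress response genes (Chac1, Trib3, Cth, Gdf15). Higher genes included the vascular genes Gja4 and S1pr1 and the axon guidance receptor Unc5c. In 41 of the 55 genes every CPM of one group was above every CPM of the other, against 1.93% of all genes tested. The 55 were picked for a difference between these same tumors, so a higher share follows from that choice. The median log2 fold change over all genes was -0.0090, a value that the TMM scaling holds near 0. Without cisplatin+ICB replicate 1, 11 of 18438 genes passed (0.0597%), 1 higher and 10 lower, and 10 of them were among the 55. These were Arsg on the higher side and, on the lower side, Chil3, S100a9, Cd177, Gpr141, Mst1, Pdk1, Pspc1, Acad10 and Gm48065. Without 5-FU+ICB replicate 5, 3 genes passed, and without both tumors 4 did. The count also moved by over 1.5 times when 5-FU+ICB replicate 1 (1 gene), 2 (2114 genes) or 4 (301 genes) or cisplatin+ICB replicate 2 (20 genes), 3 (20 genes), 4 (13 genes) or 5 (1121 genes) was left out. Of the 55 genes, Acad10 and Gm48065 alone passed without 5-FU+ICB replicate 5, and again without both tumors. Of 46 of the 55 genes followed in each of these fits, none changed direction, but none passed without 5-FU+ICB replicate 1. Only chosen genes were followed in the fits that left out 1 tumor, so other members of a list may have passed there. Unless another fit is named, passing refers below to edgeR with all tumors. Of the genes followed that did not pass so, 33 did without 5-FU+ICB replicate 2, 25 without cisplatin+ICB replicate 5 and 9 without 5-FU+ICB replicate 4. With the 10 tumors alone in the edgeR model no gene passed, while 1795 had an unadjusted p below 0.05 and the lowest adjusted p was 0.177.

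**Figure D1:**
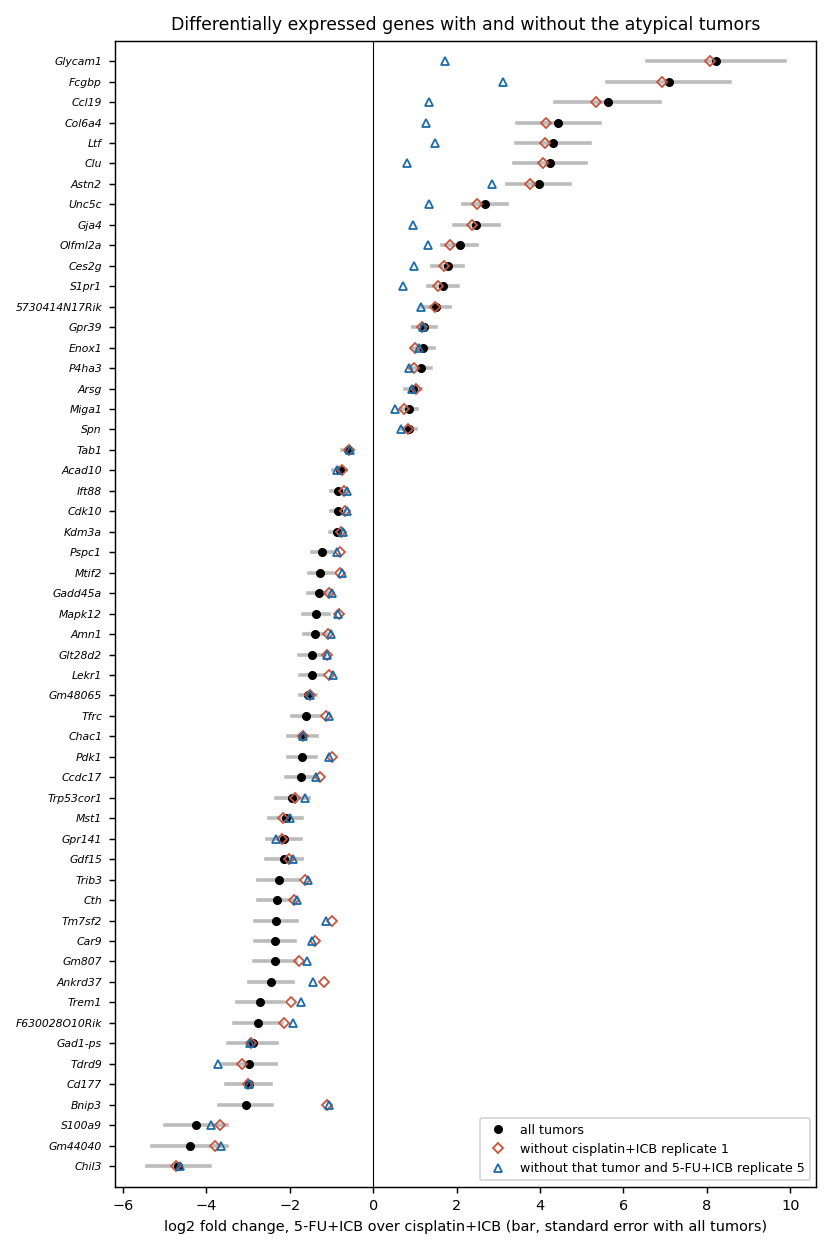
Log2 fold change, 5-FU+ICB over cisplatin+ICB, for the 55 genes that passed, in all tumors (with the SE as a bar) and in fits without cisplatin+ICB replicate 1 and without that tumor and 5-FU+ICB replicate 5. Chil3 lay at -4.68, -4.73 and -4.62 in the 3 fits, while Bnip3 went from -3.05 to -1.10 and -1.06.

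Chil3 and S100a9, both made by myeloid cells, had the largest log2 fold changes on the lower side among genes that averaged 50 counts or more and whose groups did not overlap. Chil3 (chr3:106147554-106167564, GRCm38), which encodes the chitinase-like protein Ym1 of monocytes and macrophages, was at 1.68, 0.838, 1.22, 1.58 and 0.651 CPM in the 5-FU+ICB tumors and 26.6, 74, 9.91, 35.9 and 7.66 CPM in the cisplatin+ICB tumors. The lowest cisplatin+ICB tumor was thus above the highest 5-FU+ICB tumor. It fell in 5-FU+ICB relative to cisplatin+ICB (log2 fold change -4.68 ± 0.75 (SE), adjusted p = 0.0152), and the value without cisplatin+ICB replicate 1 was -4.73 (adjusted p = 0.0242). It missed the threshold in other fits (adjusted p = 0.0526 without 5-FU+ICB replicate 5 and 0.0511 without both tumors). Chil3 has a near-identical neighbour in Chil4, between which transcript counting could divide reads. S100a9 (chr3:90692632-90695721), a subunit of calprotectin made by neutrophils and monocytes, was at 1.08, 0.714, 0.446, 0.805 and 1.3 CPM in the 5-FU+ICB tumors and 39, 15.4, 5.13, 8.92 and 14.7 CPM in the cisplatin+ICB tumors, again without overlap. Its difference passed with and without cisplatin+ICB replicate 1 (log2 fold change -4.26 ± 0.75 (SE), adjusted p = 0.0314, and -3.67 (adjusted p = 0.0486) without that tumor) but not in other fits (adjusted p = 0.0635 without 5-FU+ICB replicate 5 and 0.107 without both tumors). S100a8, the partner subunit, ranged over 0.59 to 3.53 CPM in 5-FU+ICB and 4.19 to 22 CPM in cisplatin+ICB tumors and did not pass (log2 fold change -2.13, adjusted p = 0.0633). Cd177, a surface glycoprotein of neutrophils, was low throughout, at 0.0373, 0.186, 0.0812, 0.217 and 0.1 CPM in the 5-FU+ICB tumors and 1.01, 1.4, 0.737, 1.02 and 1.05 CPM in the cisplatin+ICB tumors, and also fell (log2 fold change -2.99 ± 0.55 (SE), adjusted p = 0.0314), with adjusted p = 0.0486 without cisplatin+ICB replicate 1 and 0.0858 without 5-FU+ICB replicate 5, and 0.113 without both tumors. Of the 5-FU+ICB tumors, replicates 1, 3 and 5 held at most 3 counts of it. Chil3, S100a9 and Cd177 each passed in 8 of the 10 fits that left out 1 tumor. The fits in which they missed were those without 5-FU+ICB replicate 1 and without 5-FU+ICB replicate 5.

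Trem1, a receptor that amplifies inflammatory signals in neutrophils and monocytes, lay between 0.35 to 3.31 CPM in 5-FU+ICB and 5.6 to 40.8 CPM in cisplatin+ICB tumors and fell (log2 fold change -2.72 ± 0.55 (SE), adjusted p = 0.0345), but missed the threshold without cisplatin+ICB replicate 1 at -1.97 (adjusted p = 0.117). Gpr141, an orphan receptor coupled to G proteins, was at 4.92, 1.55, 8.4, 5.48 and 6.86 CPM in the 5-FU+ICB tumors and 19.4, 24.4, 15.8, 34 and 25 CPM in the cisplatin+ICB tumors. It fell (log2 fold change -2.13 ± 0.41 (SE), adjusted p = 0.0314) and passed also without cisplatin+ICB replicate 1, at -2.19 (adjusted p = 0.0486), but in 7 of the 10 fits that left out 1 tumor (adjusted p = 0.0851 without 5-FU+ICB replicate 5 and 0.108 without both tumors). Of the 7 neutrophil markers tested, S100a9 alone was called lower, where 0.195% of all genes were, and the median log2 fold change of the list was -0.89, or -0.88 without cisplatin+ICB replicate 1 and -0.68 without both tumors. Cxcr2, the chemokine receptor of neutrophils, had values of 0.522 to 7.06 CPM in 5-FU+ICB and 2.55 to 10.7 CPM in cisplatin+ICB tumors that overlapped through 5-FU+ICB replicate 5 (log2 fold change -1.69, adjusted p = 0.0921, and -3.10 (adjusted p = 0.0127) without both tumors). Csf3, the growth factor of neutrophils, leaned the other way at 0.406 to 2.85 CPM in 5-FU+ICB and 0.124 to 0.558 CPM in cisplatin+ICB tumors (log2 fold change 2.43, adjusted p = 0.0584). Of the 6 monocyte markers Chil3 alone was called lower, against the same 0.195%, and the median of that list was -0.066, or 0.24 without cisplatin+ICB replicate 1 and -0.13 without both tumors. The monocyte markers Ly6c2 (log2 fold change 0.90) and F13a1 (0.87) and the neutrophil marker G0s2 (0.34) leaned higher and did not pass. Macrophage, dendritic cell, mast cell, lymphoid and vascular lists had positive medians in the same tumors, as given below, and their part in these values was not tested.

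**Figure D2:**
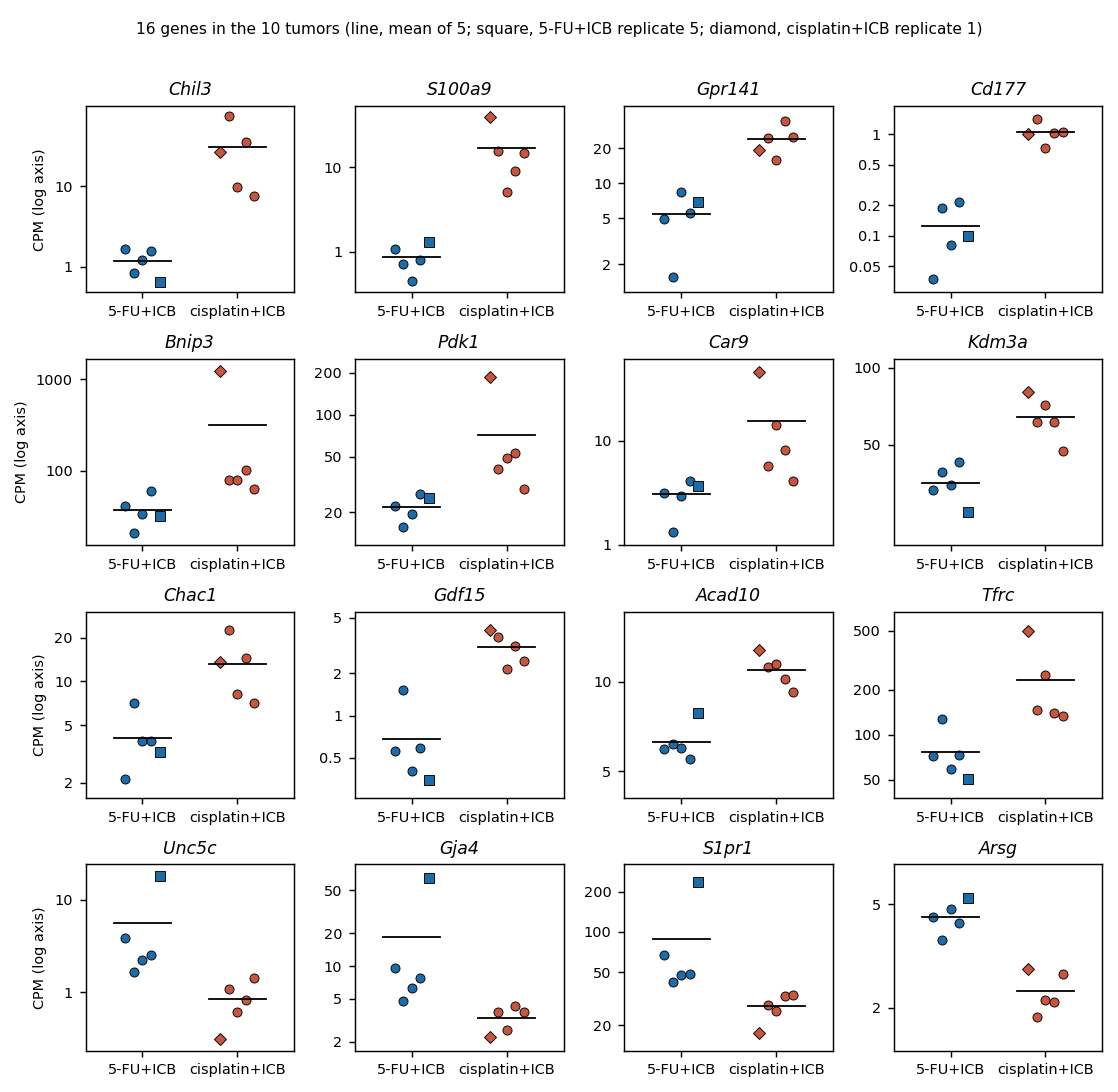
CPM on log axes of 16 genes in the 5 5-FU+ICB and 5 cisplatin+ICB tumors, with the mean of each group as a line. Cisplatin+ICB replicate 1 (diamond) carries the highest Bnip3, Pdk1 and Car9 of its group, and 5-FU+ICB replicate 5 (square) the highest Unc5c, Gja4 and S1pr1, while the separation in Chil3, Gpr141 and Acad10 spans the other tumors as well.

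HIF-1 target genes formed the second set. Of the 17 on the list, 5 were lower (Bnip3, Pdk1, Car9, Ankrd37 and Kdm3a) and none was higher, where 0.195% of all genes were lower. The promoters of genes whose levels moved together are shown for ACGTG, one form of the core letters that HIF-1 binds (the other is GCGTG), read on either strand. Each window runs from 250 bases before to 50 bases after the most upstream annotated start, taken 5′ to 3′ on the gene's strand from RefSeq (GRCm38.p6), and the match stands in capitals. It is reference sequence and was not read from these BALB/c tumors. Bnip3 (chr7:138909457-138909756, minus strand) holds the letters on both strands as an overlapping CACGTG, Car9 (chr4:43506776-43507075, plus strand) holds them once on the opposite strand just before its start, and Ankrd37 (chr8:45999801-46000100, minus strand) holds them at 2 places.
Bnip3: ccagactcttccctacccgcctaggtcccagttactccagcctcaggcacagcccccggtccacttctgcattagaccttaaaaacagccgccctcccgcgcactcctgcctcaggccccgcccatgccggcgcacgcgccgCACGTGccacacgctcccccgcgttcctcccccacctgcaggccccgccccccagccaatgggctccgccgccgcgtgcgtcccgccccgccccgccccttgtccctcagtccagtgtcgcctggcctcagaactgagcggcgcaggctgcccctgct
Car9: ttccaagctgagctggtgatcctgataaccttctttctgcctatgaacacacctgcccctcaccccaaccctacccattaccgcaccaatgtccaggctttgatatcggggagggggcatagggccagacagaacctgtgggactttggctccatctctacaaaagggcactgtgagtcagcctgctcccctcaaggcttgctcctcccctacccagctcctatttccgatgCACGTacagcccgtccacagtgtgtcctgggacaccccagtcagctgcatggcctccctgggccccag
Ankrd37: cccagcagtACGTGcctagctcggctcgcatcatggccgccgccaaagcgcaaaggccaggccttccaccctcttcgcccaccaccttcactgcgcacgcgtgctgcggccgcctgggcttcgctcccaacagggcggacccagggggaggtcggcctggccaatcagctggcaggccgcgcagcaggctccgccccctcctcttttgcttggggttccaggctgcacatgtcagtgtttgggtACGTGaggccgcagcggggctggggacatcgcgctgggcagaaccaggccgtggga
Among 12496 tested genes with such a window, 24.4% held ACGTG. On the HIF-1 list it was 9 of 14 genes with a window (64.3%), and among all genes lower in 5-FU+ICB it was 8 of 30 (26.7%). With GCGTG counted as well, the shares were 59% of all such genes, 12 of 14 on the HIF-1 list (85.7%) and 16 of 30 among the lower genes (53.3%), the last below that of all genes. The other called HIF-1 targets, Pdk1 and Kdm3a, have no ACGTG in their windows, but hold GCGTG, Pdk1 at 2 places and Kdm3a at 1, and a match describes letters and not a binding site.

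Bnip3 (chr7:138890836-138909519), a receptor for the removal of mitochondria, was at 41.3, 20.8, 34, 60.1 and 32 CPM in the 5-FU+ICB tumors and 1242, 79, 78.5, 101 and 63.3 CPM in the cisplatin+ICB tumors. The groups did not overlap, and cisplatin+ICB replicate 1 was far above the rest. The log2 fold change of -3.05 ± 0.64 (SE, adjusted p = 0.0348) was -1.10 (adjusted p = 0.125) without that tumor. Pdk1 (chr2:71873224-71903858), the kinase that holds pyruvate back from the mitochondria, was at 22.1, 15.7, 19.5, 27.3 and 25.3 CPM in the 5-FU+ICB tumors and 187, 40.7, 49.1, 53.7 and 29.5 CPM in the cisplatin+ICB tumors. It fell with and without cisplatin+ICB replicate 1 (log2 fold change -1.71 ± 0.33 (SE), adjusted p = 0.0314, and -0.98 (adjusted p = 0.0486)), and passed in 8 of the 10 fits that left out 1 tumor (adjusted p = 0.0934 without 5-FU+ICB replicate 5 and 0.107 without both tumors). Car9, the carbonic anhydrase that acidifies the outside of hypoxic cells, was at 3.13, 1.33, 2.96, 4.12 and 3.65 CPM in the 5-FU+ICB tumors and 45.5, 5.71, 14.1, 8.18 and 4.06 CPM in the cisplatin+ICB tumors and overlapped by a single tumor (log2 fold change -2.35 ± 0.48 (SE), adjusted p = 0.0347). Ankrd37, a short ankyrin repeat protein, ranged over 1.09 to 3.85 CPM in 5-FU+ICB and 3.32 to 43 CPM in cisplatin+ICB tumors (log2 fold change -2.44, adjusted p = 0.0382). The histone demethylase gene Kdm3a was at 33.2, 39.2, 34.9, 42.7 and 27.4 CPM in the 5-FU+ICB tumors and 80.2, 61.6, 71.2, 61.4 and 47.2 CPM in the cisplatin+ICB tumors and had the smallest SE of these genes (log2 fold change -0.86 ± 0.17 (SE), adjusted p = 0.0314). Without cisplatin+ICB replicate 1, Car9, Ankrd37 and Kdm3a had log2 fold changes of -1.40 (adjusted p = 0.117), -1.19 (adjusted p = 0.129) and -0.77 (adjusted p = 0.0664).

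Several other genes of oxygen response and glucose use had values in the same direction without passing. Ero1l, an oxidase of the endoplasmic reticulum, did not overlap between groups (68.7 to 100.1 CPM in 5-FU+ICB and 108 to 202 CPM in cisplatin+ICB tumors) but missed the threshold (log2 fold change -0.80, adjusted p = 0.0523). Eno1, the glycolytic enolase, was likewise without overlap at 399 to 539 CPM in 5-FU+ICB and 550.4 to 956 CPM in cisplatin+ICB tumors (log2 fold change -0.55, adjusted p = 0.0712). Positive log2 fold changes were held by 5 of the 17 HIF-1 targets, the largest that of P4ha2 (0.40). They were also held by 3 of the 15 glycolysis genes, the largest that of Hk1 (0.34), and none of these passed. The median log2 fold change of the HIF-1 list was -0.80, or -0.26 without cisplatin+ICB replicate 1 and -0.47 without both tumors, and none of the 15 glycolysis genes passed with edgeR and all tumors (of those followed, Eno1 did in 2 of the 10 fits that left out 1, and DESeq2 called 4 lower), with a median of -0.46, or -0.23 without cisplatin+ICB replicate 1 and -0.30 without both tumors. Transcripts of the subunits of HIF-1 itself did not pass. Hif1a had a log2 fold change of 0.41 (adjusted p = 0.289), and Arnt one of 0.18 (adjusted p = 0.538) that reached -1.26e-04 without cisplatin+ICB replicate 1, where both transcripts were the lowest of the 10 tumors.

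Of the 10 genes of the endoplasmic reticulum stress list, Chac1 and Trib3 were lower in 5-FU+ICB tumors and 8 did not pass, where 0.195% of all genes were lower. Chac1 (chr2:119351229-119354381), an enzyme that degrades glutathione, is shown because its window (chr2:119350992-119351291, plus strand) holds TGATGNAA, letters that ATF4 and its partners bind, on the opposite strand.
Chac1: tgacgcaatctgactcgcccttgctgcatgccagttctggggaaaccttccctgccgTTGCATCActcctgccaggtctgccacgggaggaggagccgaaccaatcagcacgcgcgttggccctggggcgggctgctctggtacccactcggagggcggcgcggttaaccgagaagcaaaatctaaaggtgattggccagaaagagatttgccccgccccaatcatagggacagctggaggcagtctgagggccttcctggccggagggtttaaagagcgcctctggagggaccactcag
These letters were present on either strand in 2.47% of all windows, in 4 of 10 genes of the endoplasmic reticulum stress list and in 3 of 30 lower genes. Chac1 itself was at 2.13, 7.05, 3.9, 3.9 and 3.25 CPM in the 5-FU+ICB tumors and 13.6, 22.4, 8.23, 14.4 and 7.1 CPM in the cisplatin+ICB tumors, with a narrow gap between the groups (log2 fold change -1.70 ± 0.35 (SE), adjusted p = 0.0348). Trib3, a pseudokinase induced by ATF4, ranged over 3.15 to 9.99 CPM in 5-FU+ICB and 6.27 to 61 CPM in cisplatin+ICB tumors (log2 fold change -2.27, adjusted p = 0.0401), and Cth, which makes cysteine from cystathionine, over 1.05 to 3.54 CPM in 5-FU+ICB and 3.2 to 17.8 CPM in cisplatin+ICB tumors (log2 fold change -2.31, adjusted p = 0.0314). For both, 5-FU+ICB replicate 2 alone reached into the cisplatin+ICB range. Cth is not on the list, and the list had a median log2 fold change of -0.88, or -0.51 without cisplatin+ICB replicate 1 and -0.47 without both tumors. Atf4 (log2 fold change -1.01, adjusted p = 0.0712) and Ddit3, the factor CHOP (log2 fold change -0.75, adjusted p = 0.0687), did not pass. Herpud1 and Xbp1, of the same list, had positive log2 fold changes of 0.61 and 0.23 and did not pass. None of Chac1, Trib3 and Cth passed without cisplatin+ICB replicate 1, with values of -1.68 (adjusted p = 0.0758), -1.64 (adjusted p = 0.121) and -1.90 (adjusted p = 0.0766).

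Of the 21 p53 targets tested, 1 was lower, where 0.195% of all genes were, and 3 were lower with DESeq2 size factors in edgeR. This was Gdf15 (chr8:70629393-70632456), a cytokine induced by cell stress, at 0.559, 1.52, 0.406, 0.588 and 0.35 CPM in the 5-FU+ICB tumors and 4.09, 3.64, 2.15, 3.13 and 2.45 CPM in the cisplatin+ICB tumors, which fell without overlap (log2 fold change -2.15 ± 0.43 (SE), adjusted p = 0.0345). Trp53cor1 (chr17:29057430-29079179), the long noncoding RNA lincRNA-p21 beside Cdkn1a and not on the list, was at 0.447, 0.372, 0.365, 0.619 and 0.05 CPM in the 5-FU+ICB tumors and 1.75, 1.56, 1.45, 1.36 and 1.21 CPM in the cisplatin+ICB tumors and fell too (log2 fold change -1.94 ± 0.39 (SE), adjusted p = 0.0345). Gadd45a, an arrest gene shared by p53 and stress responses, lay at 5.46 to 11.9 CPM in 5-FU+ICB and 8.87 to 31.9 CPM in cisplatin+ICB tumors (log2 fold change -1.29, adjusted p = 0.046, and -1.05 (adjusted p = 0.117) without cisplatin+ICB replicate 1). Bbc3, the death gene PUMA (log2 fold change -0.90, adjusted p = 0.0509), and Mdm2, the ligase that degrades p53 (log2 fold change -0.69, adjusted p = 0.0633), did not overlap between groups but missed the threshold. Cdkn1a, the cell cycle inhibitor p21, ranged over 124 to 187 CPM in 5-FU+ICB and 186 to 261 CPM in cisplatin+ICB tumors (log2 fold change -0.58, adjusted p = 0.0622). Of the 21 targets, 6 had positive log2 fold changes, among them Perp (2.27), Btg2 (0.96) and Sesn1 (0.61), and none of the 6 passed. The list's median was -0.19, or -0.22 without cisplatin+ICB replicate 1 and -0.20 without both tumors. Without cisplatin+ICB replicate 1, Gdf15 was at -2.03 (adjusted p = 0.0758) and Trp53cor1 at -1.87 (adjusted p = 0.0734).

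Among metabolic and signaling genes, Acad10 depended least on single tumors. Acad10 (chr5:121621026-121660514), of the acyl-CoA dehydrogenase family, was at 5.93, 6.18, 5.97, 5.48 and 7.86 CPM in the 5-FU+ICB tumors and 12.8, 11.2, 11.5, 10.2 and 9.21 CPM in the cisplatin+ICB tumors. The groups did not overlap, and its fall (log2 fold change -0.81 ± 0.14 (SE), adjusted p = 0.0314) passed in 9 of the 10 fits that left out 1 tumor, with -0.75 (adjusted p = 0.0486) without cisplatin+ICB replicate 1 and -0.88 (adjusted p = 0.00407) without both tumors. Pspc1, a paraspeckle protein, was at 16.3, 17.2, 14.8, 15.6 and 17.2 CPM in the 5-FU+ICB tumors and 77.2, 28.7, 34.8, 25.8 and 24.2 CPM in the cisplatin+ICB tumors (log2 fold change -1.23, adjusted p = 0.0314, and -0.80 (adjusted p = 0.0486) without cisplatin+ICB replicate 1). It passed in 8 of the 10 fits that left out 1 tumor (adjusted p = 0.0851 without 5-FU+ICB replicate 5 and 0.0511 without both tumors). Mst1, which encodes macrophage stimulating protein, lay at 0.4 to 1.79 CPM in 5-FU+ICB and 2.11 to 7.21 CPM in cisplatin+ICB tumors (log2 fold change -2.10, adjusted p = 0.0314, and -2.16 (adjusted p = 0.0486) without cisplatin+ICB replicate 1), and passed in 5 of the 10 fits that left out 1 tumor (adjusted p = 0.103 without 5-FU+ICB replicate 5 and 0.106 without both tumors). Zc3h6, a zinc finger gene, did not pass with all tumors but did without cisplatin+ICB replicate 1, at -1.05 (adjusted p = 0.0486) against -0.92 (adjusted p = 0.0584) with all tumors. Cdk10, a cyclin-dependent kinase (log2 fold change -0.85, adjusted p = 0.0314), Amn1 (log2 fold change -1.39, adjusted p = 0.0314), the p38 kinase gene Mapk12 (log2 fold change -1.38, adjusted p = 0.0475), the mitochondrial initiation factor gene Mtif2 (log2 fold change -1.27, adjusted p = 0.0382), the ciliary transport gene Ift88 (log2 fold change -0.83, adjusted p = 0.0475) and Tab1, an activator of the kinase TAK1 (log2 fold change -0.61, adjusted p = 0.046), fell without overlap between the groups. Each of these 6 missed the threshold without cisplatin+ICB replicate 1.

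Tfrc, the transferrin receptor that takes up iron, was at 71.5, 128, 59.3, 73 and 50.8 CPM in the 5-FU+ICB tumors and 497, 148, 252, 140.0 and 134 CPM in the cisplatin+ICB tumors and fell (log2 fold change -1.61 ± 0.35 (SE), adjusted p = 0.0382). Tm7sf2, a sterol reductase, was at 4.29, 1.8, 2.92, 3.04 and 4.5 CPM in the 5-FU+ICB tumors and 57.6, 4.85, 9.32, 6.38 and 5.49 CPM in the cisplatin+ICB tumors (log2 fold change -2.33 ± 0.50 (SE), adjusted p = 0.0382). For both, cisplatin+ICB replicate 1 was the highest tumor, and without it the values were -1.14 (adjusted p = 0.117) and -0.98 (adjusted p = 0.117). None of the 11 genes on the cholesterol synthesis list, which does not hold Tm7sf2, passed with edgeR and all tumors (of those followed, Sqle and Hmgcs1 did in 2 each of the 10 fits that left out 1), DESeq2 called 6 of them lower, and all 11 had negative log2 fold changes with a median of -0.77, or -0.57 without cisplatin+ICB replicate 1 and -0.75 without both tumors. Hmgcs1, which starts the pathway, did not overlap between groups at 46.5 to 56.5 CPM in 5-FU+ICB and 66.4 to 137 CPM in cisplatin+ICB tumors (log2 fold change -0.80, adjusted p = 0.0757), and Sqle, the squalene epoxidase, ranged over 22.6 to 40.4 CPM in 5-FU+ICB and 39.3 to 98.4 CPM in cisplatin+ICB tumors (log2 fold change -1.07, adjusted p = 0.0687).

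On the higher side, Unc5c, Gja4 and Olfml2a had the largest log2 fold changes among genes that averaged 50 counts or more and whose groups did not overlap. Unc5c (chr3:141465216-141834924), a netrin receptor, was at 3.88, 1.68, 2.23, 2.51 and 17.7 CPM in the 5-FU+ICB tumors and 0.318, 1.09, 0.619, 0.836 and 1.43 CPM in the cisplatin+ICB tumors and rose (log2 fold change 2.68 ± 0.52 (SE), adjusted p = 0.0314). Gja4, the arterial connexin 37, was at 9.58, 4.78, 6.29, 7.71 and 64.4 CPM in the 5-FU+ICB tumors and 2.23, 3.8, 2.57, 4.24 and 3.75 CPM in the cisplatin+ICB tumors (log2 fold change 2.48 ± 0.54 (SE), adjusted p = 0.044). S1pr1 (chr3:115710433-115715072), the sphingosine-1-phosphate receptor of endothelium and lymphocytes, was at 66.7, 42.3, 47.6, 48.3 and 237 CPM in the 5-FU+ICB tumors and 17.5, 28.3, 25.8, 33.2 and 33.8 CPM in the cisplatin+ICB tumors (log2 fold change 1.67 ± 0.35 (SE), adjusted p = 0.0382). In each of these 3 genes 5-FU+ICB replicate 5 was the highest tumor, and without both atypical tumors their log2 fold changes were 1.34 (adjusted p = 0.262), 0.95 (adjusted p = 0.485) and 0.72 (adjusted p = 0.356). Olfml2a, an extracellular olfactomedin-like protein, lay at 5.79 to 23.2 CPM in 5-FU+ICB and 0.69 to 3.98 CPM in cisplatin+ICB tumors (log2 fold change 2.08, adjusted p = 0.0345), and P4ha3, a collagen prolyl hydroxylase, at 10.3 to 18.6 CPM in 5-FU+ICB and 3.24 to 8.02 CPM in cisplatin+ICB tumors (log2 fold change 1.14, adjusted p = 0.0475). Neither passed without cisplatin+ICB replicate 1, at 1.85 (adjusted p = 0.0741) and 0.97 (adjusted p = 0.117), nor did Unc5c, Gja4 and S1pr1, at 2.49 (adjusted p = 0.0766), 2.37 (adjusted p = 0.117) and 1.54 (adjusted p = 0.117). Of the 8 endothelial markers none passed with edgeR and all tumors (of those followed, Cdh5 and Tie1 passed in 3 and Kdr in 2 of the 10 fits that left out 1), and the list's median was 1.51, or 1.26 without cisplatin+ICB replicate 1 and 0.81 without both tumors. Cdh5, the endothelial cadherin (53.5 to 163 CPM in 5-FU+ICB and 6.05 to 44.4 CPM in cisplatin+ICB tumors, log2 fold change 1.48, adjusted p = 0.0633), and Tie1, an endothelial kinase receptor (18 to 65.3 CPM in 5-FU+ICB and 2.44 to 15.8 CPM in cisplatin+ICB tumors, log2 fold change 1.61, adjusted p = 0.0619), did not overlap, with cisplatin+ICB replicate 1 the lowest of the 10 tumors for both.

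Arsg (chr11:109473374-109573330), a lysosomal sulfatase, was the gene that rose both with and without cisplatin+ICB replicate 1. It was at 4.47, 3.63, 4.79, 4.24 and 5.25 CPM in the 5-FU+ICB tumors and 2.81, 1.85, 2.15, 2.11 and 2.7 CPM in the cisplatin+ICB tumors, without overlap (log2 fold change 0.95 ± 0.19 (SE), adjusted p = 0.0345, and 1.02 (adjusted p = 0.0486) without that tumor). It passed in 5 of the 10 fits that left out 1 tumor (adjusted p = 0.106 without 5-FU+ICB replicate 5 and 0.141 without both tumors). Gpr39, a receptor that senses zinc (2.23 to 3.69 CPM in 5-FU+ICB and 0.944 to 1.68 CPM in cisplatin+ICB tumors, log2 fold change 1.22, adjusted p = 0.0475), Enox1, a cell surface oxidase (2.25 to 4.87 CPM in 5-FU+ICB and 0.69 to 2.08 CPM in cisplatin+ICB tumors, log2 fold change 1.19, adjusted p = 0.0475), and Miga1, a protein of the outer mitochondrial membrane (26.9 to 49.8 CPM in 5-FU+ICB and 12.2 to 21.7 CPM in cisplatin+ICB tumors, log2 fold change 0.86, adjusted p = 0.0382), also rose without overlap. Their values without cisplatin+ICB replicate 1 were 1.18 (adjusted p = 0.117), 1.00 (adjusted p = 0.101) and 0.73 (adjusted p = 0.103). Rtl8b, a gene derived from a retrotransposon, was without overlap at 21 to 48.2 CPM in 5-FU+ICB and 12 to 20.3 CPM in cisplatin+ICB tumors and did not pass (log2 fold change 0.86, adjusted p = 0.0509). Spn, the leukocyte sialoglycoprotein CD43, rose with overlap at 153 to 332 CPM in 5-FU+ICB and 110.0 to 157 CPM in cisplatin+ICB tumors (log2 fold change 0.85, adjusted p = 0.0391, and 0.84 (adjusted p = 0.101) without cisplatin+ICB replicate 1). The next genes without cisplatin+ICB replicate 1 were ranked by unadjusted p among those that averaged 50 counts or more and whose groups did not overlap without that tumor. After Arsg these were BC029722, Rcn3, a calcium-binding protein of the secretory pathway, and Fcrls, a microglia and macrophage gene, at 0.53 (adjusted p = 0.0664), 0.84 (adjusted p = 0.0717) and 2.45 (adjusted p = 0.0717). Id3, an inhibitor of transcription factors, was at 1.51 (adjusted p = 0.101) and Vwa1, a matrix protein, at 0.96 (adjusted p = 0.105) in the same fit.

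Several of the largest fold changes on the higher side rested on a single tumor. These genes were picked after their values were seen, since their groups overlapped or their mean counts were low. Glycam1, the mucin of high endothelial venules that binds L-selectin, was at 2.05, 0.621, 1.42, 0.898 and 492 CPM in the 5-FU+ICB tumors and 0.159, 0.16, 0.206, 0.372 and 0.714 CPM in the cisplatin+ICB tumors. Its fitted log2 fold change was 8.22 ± 1.65 (SE, adjusted p = 0.0345) in all tumors and 1.73 (adjusted p = 0.58) without both atypical tumors. Ccl19, a chemokine that draws T cells and dendritic cells, was at 8.35, 1.71, 3, 5.57 and 349.9 CPM in the 5-FU+ICB tumors and 0.159, 0.958, 0.737, 1.83 and 3.69 CPM in the cisplatin+ICB tumors (log2 fold change 5.62, adjusted p = 0.048, and 1.34 (adjusted p = 0.664) without both). Fcgbp (7.09), Col6a4, a collagen chain (4.43), Ltf, lactoferrin (4.31), and Clu, clusterin (4.23), went in the same fits to 3.12 (adjusted p = 0.434), 1.26 (adjusted p = 0.558), 1.48 (adjusted p = 0.467) and 0.82 (adjusted p = 0.5). For Clu, 5-FU+ICB replicate 5 was at 1351 CPM while the other 9 tumors lay between 7.91 and 38.9 CPM.

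With edgeR and all tumors no marker of lymphocytes passed between the combinations, while DESeq2 and limma made the calls given below. Among the lymphocyte genes followed in the 10 edgeR fits that left out 1 tumor, Cd79a passed in 3, Icos and Ms4a1 in 2 each, and Cd4, Cd8b1 and Foxp3 in 1 each. Others, such as Cd79b and Trbc2, were not followed in these fits. Cd8a, the coreceptor of cytotoxic T cells, was at 225, 11.4, 90.3, 126 and 304 CPM in the 5-FU+ICB tumors and 2.81, 56.2, 7.55, 78.9 and 108 CPM in the cisplatin+ICB tumors (log2 fold change 1.58, adjusted p = 0.199). In both groups single tumors were low, namely 5-FU+ICB replicate 2 and cisplatin+ICB replicates 1 and 3. Cd8b1 (log2 fold change 2.26, adjusted p = 0.109), Cd4 (log2 fold change 2.06, adjusted p = 0.0895), Foxp3, the regulatory T cell factor (log2 fold change 1.51, adjusted p = 0.1), and Icos, a costimulatory receptor (log2 fold change 1.80, adjusted p = 0.0813), had positive log2 fold changes and overlapping values. Foxp3 was at 28.2, 8.6, 25.2, 15.2 and 26.2 CPM in the 5-FU+ICB tumors and 0.425, 6.42, 9.59, 7.43 and 12.2 CPM in the cisplatin+ICB tumors, higher in 4 of 5 5-FU+ICB tumors than in any cisplatin+ICB tumor. The mean log2 CPM of the 13 T cell genes ranged over 2.88 to 7.27 in 5-FU+ICB and 2.35 to 5.26 in cisplatin+ICB tumors, and the list's median log2 fold change was 1.81, or 1.55 without cisplatin+ICB replicate 1 and 0.97 without both tumors. That of the 8 regulatory T cell genes was 1.25, or 1.13 without cisplatin+ICB replicate 1 and 0.86 without both tumors, and that of the 10 CD8 and cytotoxic genes 0.91, or 0.69 without cisplatin+ICB replicate 1 and 0.48 without both tumors. Gzmb, the protease granzyme B, ranged over 56.9 to 87.1 CPM in 5-FU+ICB and 27.9 to 163 CPM in cisplatin+ICB tumors and Ifng, interferon gamma, over 4.35 to 12.4 CPM in 5-FU+ICB and 0.849 to 12.4 CPM in cisplatin+ICB tumors, with log2 fold changes of -0.24 (adjusted p = 0.673) and 0.38 (adjusted p = 0.697). Mki67, the proliferation marker, had a log2 fold change of 0.077 (adjusted p = 0.938).

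With edgeR and all tumors no proinflammatory cytokine transcript passed between the combinations. Tnf, tumor necrosis factor, was at 27.8, 7.05, 17.7, 16 and 10.5 CPM in the 5-FU+ICB tumors and 4.83, 21.4, 4.25, 23.3 and 20.9 CPM in the cisplatin+ICB tumors (log2 fold change 0.083, adjusted p = 0.926). Il1b, interleukin-1 beta, ranged over 13.9 to 89.7 CPM in 5-FU+ICB and 10.5 to 67.8 CPM in cisplatin+ICB tumors (log2 fold change 0.38, adjusted p = 0.678), and Il6 over 1.26 to 6.11 CPM in 5-FU+ICB and 0.501 to 3.13 CPM in cisplatin+ICB tumors (log2 fold change 1.46, adjusted p = 0.183). Il2 was below the filter, with 4, 6, 6, 8 and 16 estimated counts in 5-FU+ICB and 0, 9, 3, 7 and 1 in cisplatin+ICB tumors. The interferon gamma response list had a median of 0.60, or 0.36 without cisplatin+ICB replicate 1 and 0.36 without both tumors, MHC class II one of 1.08, or 0.90 without cisplatin+ICB replicate 1 and 0.51 without both tumors, and the inflammatory cytokine list one of 0.48, or 0.35 without cisplatin+ICB replicate 1 and 0.28 without both tumors. None of their 15, 8 and 15 genes passed with edgeR and all tumors.

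Other cell type lists had medians away from 0 without a gene that passed with edgeR and all tumors. Among the genes of these lists followed in the 10 fits that left out 1 tumor, Acp5, Ctsk, Atp6v0d2 and Cd163 passed in 2 each, and Oscar, Alas2 and Msln in 1 each. Osteoclast markers, genes of bone-resorbing myeloid cells, had a median of -1.28, or -1.05 without cisplatin+ICB replicate 1 and -0.97 without both tumors over 8 genes. Acp5, the tartrate-resistant acid phosphatase, was at 107, 307, 65.6, 149 and 128 CPM in the 5-FU+ICB tumors and 1720.1, 262, 339.7, 327 and 254 CPM in the cisplatin+ICB tumors (log2 fold change -1.94, adjusted p = 0.0655), and Ctsk, cathepsin K, ranged over 65.7 to 426 CPM in 5-FU+ICB and 337 to 1512 CPM in cisplatin+ICB tumors (log2 fold change -1.82, adjusted p = 0.0687). Macrophage markers had a median of 0.77, or 0.65 without cisplatin+ICB replicate 1 and 0.73 without both tumors, with Cd163, the scavenger receptor for hemoglobin, at 96.3, 39.4, 26.4, 94.3 and 34.9 CPM in the 5-FU+ICB tumors and 9.66, 9.1, 24.8, 6.85 and 19.8 CPM in the cisplatin+ICB tumors, without overlap (log2 fold change 2.05, adjusted p = 0.0649). Erythroid markers had a median of -2.91, or -1.79 without cisplatin+ICB replicate 1 and -2.91 without both tumors over 5 genes, and Alas2, the first enzyme of heme synthesis in red cells, did not overlap at 0.162 to 0.901 CPM in 5-FU+ICB and 1.05 to 4.62 CPM in cisplatin+ICB tumors (log2 fold change -2.15, adjusted p = 0.0717). B and plasma cell markers had the highest median, 3.36, or 3.33 without cisplatin+ICB replicate 1 and 0.20 without both tumors, and skeletal muscle one of 1.71, or 1.5 without cisplatin+ICB replicate 1 and 0.13 without both tumors, so both came near 0 once the tumors were left out. The respiratory chain (-0.24, or 0.28 without cisplatin+ICB replicate 1 and 0.14 without both tumors) and fluoropyrimidine metabolism (-0.67, or 0.074 without cisplatin+ICB replicate 1 and 0.079 without both tumors) lists changed sign without cisplatin+ICB replicate 1. With edgeR and all tumors no gene of the other 16 lists passed. In the order of all tumors, without cisplatin+ICB replicate 1 and without both tumors, the medians that kept their sign were 0.62, 0.56 and 0.51 for NK cell, 1.04, 0.93 and 0.47 for dendritic cell, 1.01, 0.86 and 1.09 for mast cell, 0.71, 0.52 and 0.61 for fibroblast, 1.44, 2.80 and 0.89 for mesothelial, 1.57, 1.36 and 0.94 for keratinocyte, 0.84, 0.77 and 0.61 for T cell checkpoint, -0.12, -0.22 and -0.082 for DNA repair, 0.28, 0.22 and 0.053 for type I interferon response, 0.38, 0.27 and 0.23 for MHC class I, and 0.50, 0.39 and 0.34 for immediate early. Those that changed sign were 0.45, 0.38 and -0.37 for adipocyte, -0.11, 0.047 and 0.087 for mitosis, -0.015, 0.083 and 0.15 for DNA replication, 0.058, -0.037 and -0.023 for NRF2 target and metallothionein, and 0.10, -0.18 and -0.047 for mineralization.

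Limma with a quality weight for each library, which gave cisplatin+ICB replicate 1 a weight of 0.0493 and 5-FU+ICB replicates 2 and 5 weights of 0.250 and 0.251, called 626 genes higher (3.38%) and 614 lower (3.32%). Among these were 53 of the 55. On the gene lists it called 6 of 8 osteoclast, 6 of 10 endoplasmic reticulum stress, 7 of 17 HIF-1, 5 of 21 p53, 4 of 7 neutrophil and 3 of 5 erythroid genes lower. It called 6 of 8 endothelial, 5 of 8 regulatory T cell and 4 of 11 macrophage genes higher. Of the 13 T cell genes it called 2 higher, of the 15 inflammatory cytokine genes 1 higher, and of the 11 cholesterol synthesis genes none. DESeq2 called 682 genes higher (3.64% of 18754 with an adjusted p) and 988 lower (5.27%). On the lists it called 8 of 17 HIF-1, 8 of 21 p53, 6 of 10 endoplasmic reticulum stress, 6 of 11 cholesterol synthesis, 5 of 5 erythroid, 4 of 8 osteoclast, 4 of 15 glycolysis and 3 of 7 neutrophil genes lower. It called 6 of 8 endothelial, 4 of 13 T cell, 3 of 8 B and plasma cell, 2 of 8 regulatory T cell, 2 of 10 CD8 and cytotoxic, 1 of 8 MHC class II and 1 of 15 inflammatory cytokine genes higher. It called at most 3 genes of any other list.

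**Figure D3:**
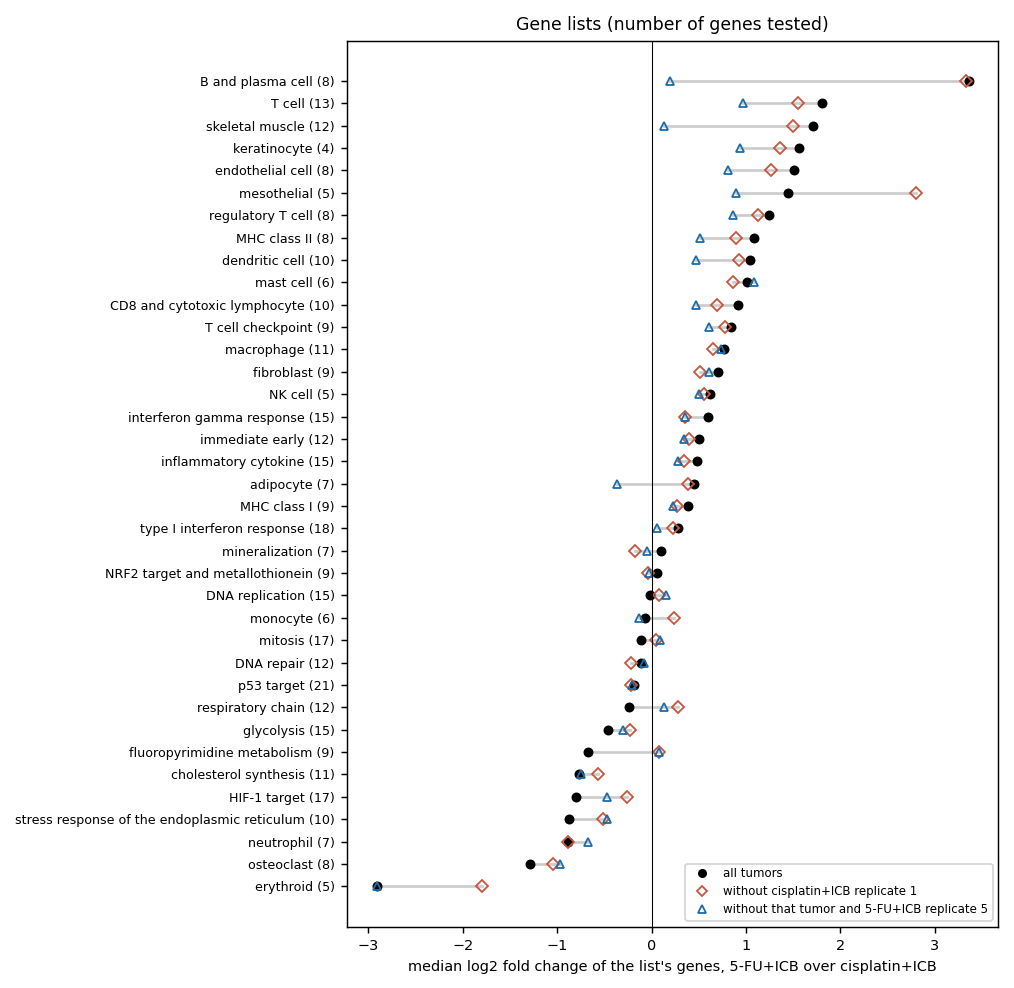
Median log2 fold change, 5-FU+ICB over cisplatin+ICB, of the tested genes of each of 37 lists, in all tumors and with 1 or both atypical tumors left out. Neutrophil, osteoclast and cholesterol synthesis medians stay below 0 in the 3 fits, while the B and plasma cell median goes from 3.36 to 0.20.

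The same drugs without ICB were compared in 5 5-FU and 4 cisplatin tumors, which are other tumors than those of the combinations but share the fit's estimate of spread. There 67 genes passed (0.362%), 17 higher and 50 lower in 5-FU tumors, and 1223 passed (6.63%) when cisplatin+ICB replicate 1 was left out of the fit that estimates the spread. Of the 55 genes of the combinations, 54 had the same direction between the single drugs, where 80.2% of all genes did. This held for all 19 higher genes and for 35 of the 36 lower ones, with Gm44040 as the exception. Its estimated counts were at or under 3 in every 5-FU+ICB tumor. At an unadjusted p below 0.05 in the same direction there were 41 of the 55, against 15.5% of all genes with such a p in either direction. In 40 of the 55 the single-drug tumors were also fully separated, against 12.5% of all genes. Both comparisons called 11 genes, which is 20% of the 55 and 16.4% of the 67. With cisplatin+ICB replicate 1 out of the fit, 29 of the 55 were among the 1223 called between the single drugs.

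Pdk1 and Acad10 separated the drugs in both settings. Pdk1 averaged 16.6 ± 1.99 CPM with 5-FU, 68.3 ± 12.5 with cisplatin, 22 ± 4.58 with 5-FU+ICB and 72 ± 65 with cisplatin+ICB (mean ± SD), and between the single drugs it differed by -2.04 ± 0.35 (log2, SE, adjusted p = 0.0119). PBS tumors averaged 67.4 ± 15.9 CPM and ICB tumors 52.4 ± 8.56 CPM, near the cisplatin values. Acad10 averaged 6.19 ± 0.684 CPM with 5-FU, 13.7 ± 2.06 with cisplatin, 6.28 ± 0.916 with 5-FU+ICB and 11 ± 1.36 with cisplatin+ICB, against 12.8 ± 0.738 with PBS and 10.4 ± 1.5 with ICB, and fell between the single drugs (log2 fold change -1.14 ± 0.15 (SE), adjusted p = 0.00121). Trp53cor1 averaged 0.323 ± 0.15 CPM with 5-FU, 1.36 ± 0.164 with cisplatin, 0.371 ± 0.207 with 5-FU+ICB and 1.47 ± 0.205 with cisplatin+ICB (log2 fold change -2.05 ± 0.41 (SE), adjusted p = 0.0259 between the single drugs). Without ICB, Bnip3 had log2 fold change -2.37 ± 0.64 (SE), adjusted p = 0.092, which did not pass, and Car9 had log2 fold change -3.27 ± 0.51 (SE), adjusted p = 0.00517. Arsg leaned to 5-FU in both settings, at 4.7 ± 0.607 CPM with 5-FU, 2.84 ± 0.211 with cisplatin, 4.48 ± 0.607 with 5-FU+ICB and 2.32 ± 0.412 with cisplatin+ICB, but did not pass without ICB (log2 fold change 0.73 ± 0.21 (SE), adjusted p = 0.105).

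With all tumors in the fit, the myeloid genes Chil3, S100a9 and Cd177 did not pass between the drugs without ICB. Chil3 averaged 0.358 ± 0.277 CPM with 5-FU, 3.13 ± 1.53 with cisplatin, 1.19 ± 0.449 with 5-FU+ICB and 30.8 ± 26.8 with cisplatin+ICB, with 0.375 ± 0.308 in PBS and 11.9 ± 13 in ICB tumors. Between the single drugs its values did not overlap, at 0.144 to 0.758 CPM with 5-FU and 1.07 to 4.51 CPM with cisplatin. Its difference there missed the threshold (log2 fold change -3.16 ± 0.77 (SE), adjusted p = 0.0593), as did that of S100a9 (log2 fold change -2.12 ± 0.72 (SE), adjusted p = 0.159). Cd177 had a log2 fold change of -0.67 (adjusted p = 0.547) without ICB. Whether a difference between the drugs depended on ICB was tested as an interaction. With edgeR no gene passed, the lowest adjusted p was 0.9999, and 420 genes (2.27%) had an unadjusted p below 0.05, among them 10 of the 55. Without cisplatin+ICB replicate 1 none passed either, with 2472 genes at an unadjusted p below 0.05 and a lowest adjusted p of 0.273. For Chil3 the unadjusted interaction p was 0.152, for S100a9 0.0408 and for Cd177 0.00668 (quasi-likelihood test), and none held after adjustment. Tnf and Il1b had log2 fold changes of 1.92 and 2.27 between the single drugs (adjusted p = 0.102 and 0.0884) and unadjusted interaction p of 0.0144 and 0.0238. DESeq2 called 1 gene for the interaction and limma with quality weights called 1105.

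**Figure D4:**
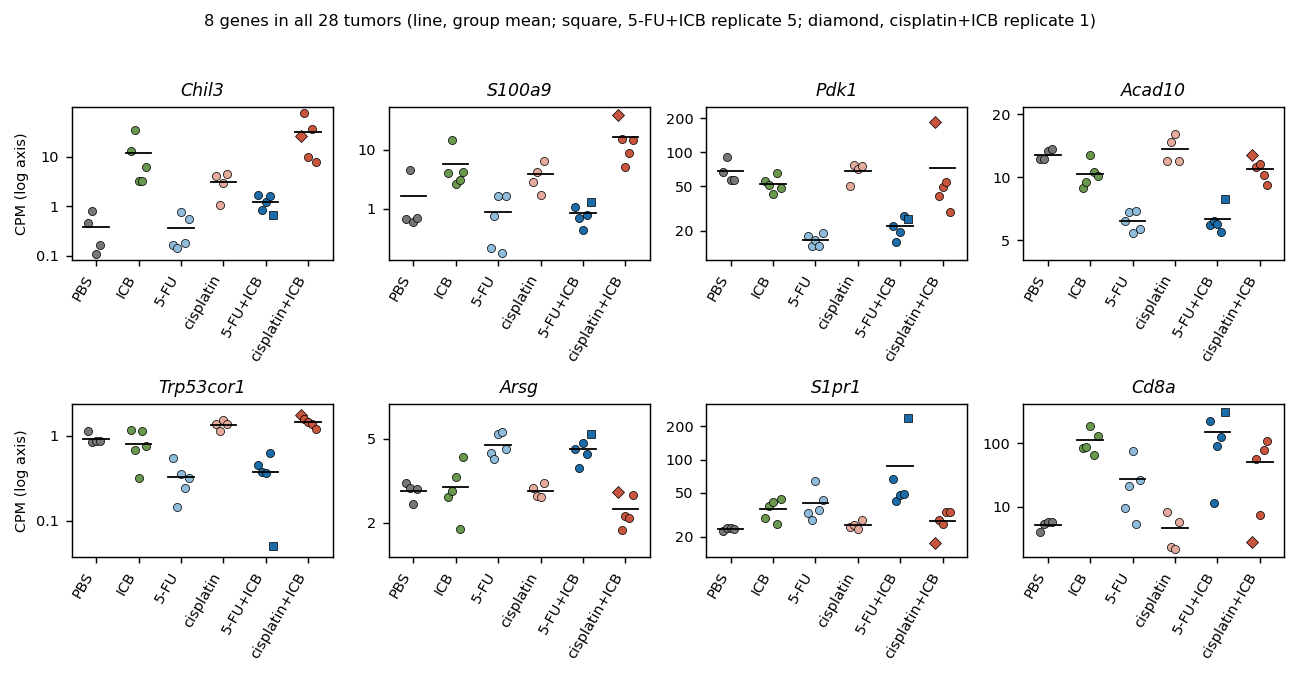
CPM on log axes of 8 genes in all 28 tumors by group, with group means as lines. Pdk1 and Acad10 are lower in 5-FU tumors with and without ICB than in the other groups, whereas Cd8a spans 2.81 to 304 CPM within the combinations.

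**Figure D5:**
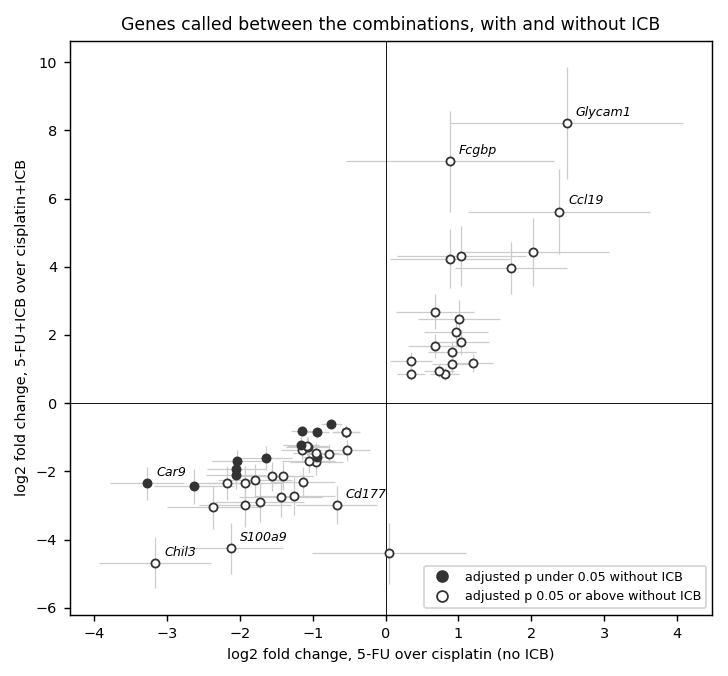
Log2 fold change of the genes that differed between the combinations (y axis, 5-FU+ICB over cisplatin+ICB) against that between the single drugs (x axis, 5-FU over cisplatin), 1 point a gene with its SE as lines. Points lie in the lower left and upper right parts except Gm44040, and filled points passed also between the single drugs.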

How the data were processed

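Libraries were prepared from whole tumors and read at 100 bases. Per the submitters' processing notes, bcl2fastq 2.20.0.422 and kallisto 0.46.0 were used, and the study's methods name GRCm38 and tximport. The authors deposited estimated counts per gene symbol, not normalized, in 2 matrices of 55341 rows. The 9 PBS and ICB tumors held in both were identical and taken once, 26 rows with names turned into dates were dropped, and 55315 genes were joined by symbol and rounded to whole counts.

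Genes were filtered with filterByExpr by group, scaled by TMM, and tested with edgeR 4.0.16 (R 4.3.3, glmQLFit and glmQLFTest, 28 tumors, 6 groups, no covariate), with Benjamini-Hochberg adjustment over all genes. Each tumor was 1 replicate, so p-values measure the spread between tumors, and the labels name no batch. DESeq2 1.42.0 and limma 3.58.1 were alternatives. A floor of 3 counts was used per library, and counting error is the limit it covers. On simulated counts for this comparison (18244 genes), 82 of 100 genes changed by 2 on the log2 scale and 44 of 100 changed by 1 were recovered. In that run 4 of 130 calls were false. These rates describe the simulated counts only. In the real tumors the count of genes passing was 1 without 5-FU+ICB replicate 1 and 2114 without 5-FU+ICB replicate 2. Whether the rates hold for tumors that differ this much was not tested.

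Named genes were, in each direction, the 10 with the largest fold change among passing genes that averaged 50 counts or more and separated the groups fully (filled up by unadjusted p), with and without cisplatin+ICB replicate 1, up to 4 members of each of 37 gene lists by unadjusted p, and the study's immune genes. Others are described after their values were seen. The members, lists and the doubt about cisplatin+ICB replicate 1 were chosen with earlier results of these data known. Of 398 list genes 382 were tested.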

Additional observations from a re-analysis of the deposited data

Results flagged for a closer look

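Of 266 values tested within the groups of 5, 34 had 1 tumor lying far from the other 4 of its group. Chance alone puts about 1 in 20 such groups past the limit used. The values are given below as log2 CPM with that of the nearest other tumor, and their causes were not tested.

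In 5-FU+ICB replicate 5 there were 10 such values. Its mitochondrial share was 16.1%, against 4.95% in the next tumor. It was far above its group with 6.01 for Gja4 (next tumor 3.27), 7.89 for S1pr1 (next tumor 6.06), 8.94 for Glycam1 (next tumor 1.08), 10.40 for Clu (next tumor 5.29), 5.36 for Id3 (next tumor 3.62) and 8.17 for Cd79a (next tumor 3.45). It was far below its group with -1.25 for Trem1 (next tumor 1.04), -3.07 for Trp53cor1 (next tumor -1.20) and -0.81 for Msln (next tumor 5.11).

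In cisplatin+ICB replicate 1 there were 19. Its mitochondrial share was 1.03% (next 3.23%) and its TMM factor 0.685 (next 1.08). It was far above its group with 10.28 for Bnip3 (next tumor 6.67), 5.85 for Tm7sf2 (next tumor 3.23), 5.97 for Mtif2 (next tumor 4.71), 10.75 for Acp5 (next tumor 8.41) and 10.56 for Ctsk (next tumor 8.62). It was far below with 4.94 for Arnt (next tumor 6.21), -0.40 for Enox1 (next tumor 0.72), 1.72 for P4ha3 (next tumor 2.68), 3.62 for Miga1 (next tumor 4.32), 2.61 for Cdh5 (next tumor 4.99), 1.33 for Tie1 (next tumor 3.34), -1.02 for Foxp3 (next tumor 2.70), 5.66 for Mki67 (next tumor 8.44) and 4.99 for Csf1 (next tumor 8.10). By mean log2 CPM it was at 6.57 for the fibroblast list (next tumor 7.83), 5.65 for the fluoropyrimidine metabolism list (next tumor 4.69) and 8.83 for the respiratory chain list (next tumor 7.34).

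Apart from these, 5-FU+ICB replicate 2 had mean log2 CPM of 2.53 for the NK cell list (next tumor 3.94), 6.03 for the stress response of the endoplasmic reticulum list (next tumor 5.61), 5.19 for the NRF2 target and metallothionein list (next tumor 5.62) and 3.34 for the mineralization list (next tumor 2.84). In 5-FU+ICB replicate 1 the value was 6.99 for Rcn3 (next tumor 6.58).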

How the results depend on the processing

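The count of 55 genes between the combinations depended on the model. DESeq2 gave 1670 (682 higher, 988 lower) and 52 of the 55, limma with sample quality weights gave 1240, and an unadjusted p gave 4198. With only the 2 groups or only the 3 ICB groups in the edgeR model the count was 0, with 1795 and 2896 genes at an unadjusted p below 0.05. DESeq2 size factors (61), no low-count filter (38), a minimum of 10 counts in every tumor (43 of 13000 genes) and no fold threshold (55) stayed within 1.5 times. Leaving out 1 tumor gave 1 to 2114 genes, and leaving out both atypical tumors, chosen after seeing the data, gave 4. Without cisplatin+ICB replicate 1, the count of 11 was 407 with DESeq2 and 1205 with limma, both also added after seeing the data. Between the single drugs DESeq2 gave 668, limma 3452 and edgeR without cisplatin+ICB replicate 1 gave 1223. For the interaction edgeR gave 0, DESeq2 1 and limma 1105. With the replicate block in the model 46 genes passed, 31 of them among the 55, and 5 passed between the single drugs. Same-numbered tumors did not deviate together throughout (correlations of -0.17 to 0.31, and 2 of 5 matched best with their own number), so the numbers were not taken as pairs.

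No named gene that passed changed direction. Among genes that did not pass, leaving out 1 tumor gave ranges of -1.26e-04 to 0.27 for Arnt, -0.30 to 0.34 for Mki67, -0.47 to 0.0949 for Gzmb and -0.22 to 0.30 for Tnf. Mki67 was -0.0015 with the 2 groups alone, -0.21 with limma and -0.0245 without both tumors, Tnf -0.0231 and -0.0647 with limma and without both, and Ifng -0.0837 without both. The causes were not tested. List medians kept their sign in 30 of 37 lists without cisplatin+ICB replicate 1, in 37 with DESeq2 size factors and in 30 with limma. Depth bounds the low genes, since 3 counts corresponded to at most 0.159 CPM.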

Other observations

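Further genes of growth factors and metabolism were looked at. Csf1, the macrophage growth factor, was at 418, 503, 369, 349 and 160.1 CPM in the 5-FU+ICB tumors and 31.6, 377, 289, 347 and 274 CPM in the cisplatin+ICB tumors (log2 fold change 0.45, adjusted p = 0.474). Pparg, a nuclear receptor of fat metabolism, ranged over 2.92 to 16.3 CPM in 5-FU+ICB and 2.18 to 7.45 CPM in cisplatin+ICB tumors (log2 fold change 0.85, adjusted p = 0.157), and its coactivator gene Ppargc1a over 1.6 to 8.78 CPM in 5-FU+ICB and 4.85 to 8.7 CPM in cisplatin+ICB tumors (log2 fold change -0.73, adjusted p = 0.324). Tdrd9, a helicase known from the germ line, passed at very low levels (0 to 0.2 CPM in 5-FU+ICB and 0.217 to 0.96 CPM in cisplatin+ICB tumors), as did Astn2, a neuronal membrane protein (0.155 to 2 CPM in 5-FU+ICB and 0 to 0.124 CPM in cisplatin+ICB tumors), and without cisplatin+ICB replicate 1 both had an adjusted p of 0.0664. Ces2g, a carboxylesterase, rose at 4.75 to 35.8 CPM in 5-FU+ICB and 3.08 to 5.34 CPM in cisplatin+ICB tumors (log2 fold change 1.79, adjusted p = 0.0348) but not without cisplatin+ICB replicate 1, at 1.70 (adjusted p = 0.105). These genes were chosen after their values were seen.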
